A study of Mus musculus with 18 samples.

Results

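Banp encodes BANP, the BTG3-associated nuclear protein, also called SMAR1. It was followed here as 1 of the 55270 genes in the deposited table, of which 19443 passed a filter on low values and were tested. Banp was selected on its normalised reads in these same libraries, as a gene high in every library of the SIRT3 group. Its levels and group differences are therefore a description, with no test, and the tests below are on other genes. Gene expression was measured by poly-A RNA sequencing of the substantia nigra, a midbrain nucleus known for its dopamine-producing neurons, in 18 mouse libraries. The tissue came from 3-month-old mice, about a month after the virus was given in the groups that received it. The 6 intact libraries were labelled WT, with no virus named. The 6 AAV-GFP libraries came from mice overexpressing green fluorescent protein from an adeno-associated virus (AAV), and the 6 AAV-SIRT3 libraries from mice overexpressing SIRT3, a mitochondrial deacylase, in the same way. The 3 groups share tissue and age. The labels name neither the promoter that drives the transgenes, nor the cells they reach, nor the mouse strain. The design text counts 6 mice a group.

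BANP is a nuclear protein of the BEN domain family. It was described as a protein that binds matrix attachment regions, the stretches of DNA that anchor chromatin loops, and as a partner of p53 and of histone deacetylase complexes. It is also known to bind an unmethylated CGCG element at the promoters of CpG island genes and to activate them, so that DNA methylation and BANP binding exclude each other at these sites.

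Libraries held between 47182529 and 64728587 reads in genes, and the group means, in M reads (megareads), were 55.1 for intact, 55.6 for AAV-GFP and 55.8 for AAV-SIRT3. Reads of Banp before normalisation ran from 705 to 1610 per library. All 6 markers of dopaminergic neurons on the list used here were read in all 3 groups, and their summed level was 30957 ± 4773 normalised reads for intact, 24380 ± 2969 for AAV-GFP and 28877 ± 1880.3 for AAV-SIRT3 (SD, n = 6 each). Markers of neighbouring tissue were read unevenly: summed choroid plexus markers ran from 831 to 47283 in intact and from 529 to 41744 in AAV-GFP, and summed anterior pituitary markers averaged 2654 ± 1717 in intact against 269.6 ± 181 and 385 ± 241 in AAV-GFP and AAV-SIRT3. AAV-GFP replicate 2 stood apart in the group comparison: 22 genes passed the threshold (an adjusted p under 0.05) between AAV-SIRT3 and AAV-GFP with it, and 861 without it. In bulk tissue, fewer cells of a type and less RNA per cell cannot be told apart.

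Banp was higher in every AAV-SIRT3 library than in any other. Values are reads normalised to library size. In intact replicates 1 to 6, Banp was at 771, 650.0, 755, 733, 804 and 800.4 normalised reads. In AAV-GFP replicates 1 to 6 it was at 751, 789, 833, 841, 1062 and 953. In AAV-SIRT3 replicates 1 to 6 it was at 1345, 1479.7, 1124, 1197, 1369.7 and 1396. The AAV-SIRT3 libraries hold the 6 highest values of the 18, and their lowest, replicate 3, lies 62.0 normalised reads above the highest AAV-GFP library, replicate 5. AAV-GFP overlaps intact: 2 of its 6 libraries, replicates 1 and 2, lie inside the intact range, and the other four lie above it.

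**Figure D1:**
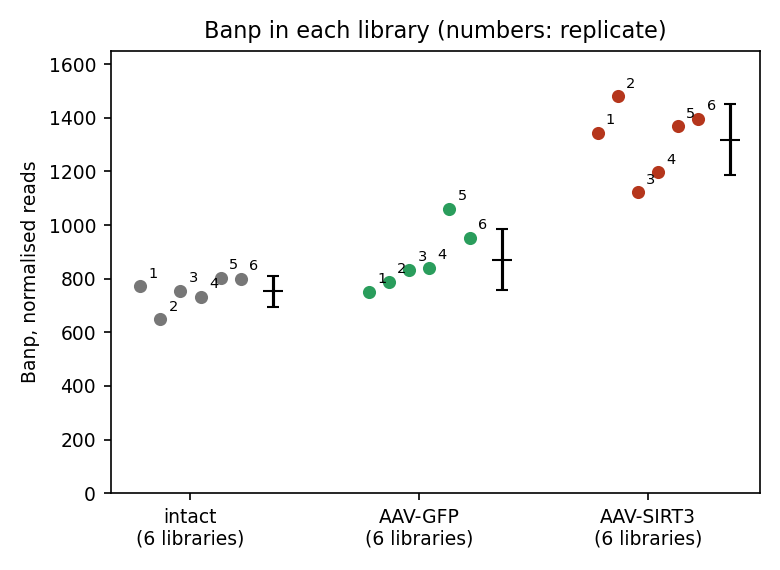
Normalised reads of Banp (vertical axis, from 0) in each library of the 3 groups. Points are libraries, numbers are replicates, and the black bar is the mean with its SD (n = 6). All 6 AAV-SIRT3 libraries, from 1124 to 1479.7, sit above the other 12, which run from 650.0 to 1062.

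Group means were 752 ± 57.0 normalised reads for intact, 871 ± 115 for AAV-GFP and 1319 ± 133 for AAV-SIRT3 (SD, n = 6 each). AAV-SIRT3 was thus 51.3% above AAV-GFP, with a log2 difference of 0.60 (SE 0.08) on the log2(value + 1) scale, and every one of the 36 pairs of libraries across the groups had the AAV-SIRT3 library higher. Against intact, AAV-SIRT3 was 75.3% higher, with a log2 difference of 0.81 (SE 0.08) and a gap of 319 normalised reads between the nearest libraries. AAV-GFP was 15.8% above intact, with a log2 difference of 0.21 (SE 0.08), and the AAV-GFP library was the higher in 30 of 36 pairs. The order of the group means was AAV-SIRT3, AAV-GFP, intact, and only the neighbours AAV-GFP and intact overlap in range. These comparisons share libraries, so they are not independent of each other.

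Banp ranked higher by how cleanly the groups separated than by the size of the difference. Of the 19443 genes tested, 31 (0.159%) had all 6 AAV-SIRT3 libraries above the 12 others, and 22 had all of them below. Ordered by the size of that gap on the log2 scale, Banp was 3rd at 0.08, after the interferon-induced genes Ifi27l2a at 0.19 and Ifit3 at 0.09. Oasl2, another interferon-induced gene, followed at 0.06. By the size of the difference from AAV-GFP to AAV-SIRT3, Banp ranked 231st of 19443 genes and 32nd of the 15245 with a mean of at least 50 normalised reads. Banp is thus high in all AAV-SIRT3 libraries, as its choice requires, while Ifi27l2a and Ifit3 come before it in the ordering by gap.

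Over all genes, 22 (0.113%) passed the threshold between AAV-SIRT3 and AAV-GFP by limma, 358 (1.84%) between AAV-GFP and intact, and 4214 (21.7%) between AAV-SIRT3 and intact, of which 11.3% of all genes were higher and 10.3% lower. The 22 include Banp, and nothing is read from that, since it was selected on these values. Of the others, 6 were higher in AAV-SIRT3 than in AAV-GFP. They were Oasl2 with a log2 difference of 1.22 (SE 0.24, adjusted p = 0.049 by limma), Ifit3 with 1.03 (SE 0.21, adjusted p = 0.049), Gm29216 with 0.90 (SE 0.16, adjusted p = 0.017), Dpysl2 with 0.38 (SE 0.07, adjusted p = 0.044), Etnppl with 0.36 (SE 0.06, adjusted p = 0.017) and Nop10 with 0.26 (SE 0.05, adjusted p = 0.044). Dpysl2 encodes a collapsin response mediator that binds tubulin, Etnppl a phosphoethanolamine lyase of astrocytes, and Nop10 a component of the ribonucleoproteins that modify ribosomal RNA. Ifit3 and Oasl2 had larger differences than Banp but uneven ones, with SDs of 682 and 543 normalised reads within AAV-SIRT3 around means of 1235 and 835. Each of these 6 calls was lost in at least 3 of the 18 fits with 1 library removed; all 6 were lost without AAV-GFP replicate 1, AAV-GFP replicate 3 or AAV-SIRT3 replicate 5.

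Sirt3 itself, the gene named in the design, gave no comparable separation. It was at 1824 ± 66.3 normalised reads for intact, 1775 ± 92.4 for AAV-GFP and 1937 ± 79.4 for AAV-SIRT3 (SD, n = 6 each). The AAV-SIRT3 libraries ran from 1801 to 2041 and the AAV-GFP libraries from 1684 to 1936, so the groups overlap, and the log2 difference of 0.13 (SE 0.04) did not pass (adjusted p = 0.183 by limma). AAV-SIRT3 replicate 2 had the highest Banp of all libraries and the lowest Sirt3 of its group. Over the 18 libraries Sirt3 had a Pearson r of 0.44 with Banp, and with the group means subtracted r was -0.35. Groups are given as labelled, and the sequence of the SIRT3 transgene is not given in the sources used here, so the reads of Sirt3 cannot check the labels.

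The Banp gene (ENSMUSG00000025316.16) spans 79.509 kb on the plus strand of chromosome 8 in GENCODE M21, from 121949750 to 122029258 (GRCm38, the build also known as mm10). The annotation gives it 16 transcripts, which merge to 18 exons and 6632 bp of exon. 4 annotated genes overlap its span. Gm27011, a non-coding transcript that starts in the opposite direction from the shared promoter, overlaps the exons of Banp by 252 bp; it held at most 3.996 normalised reads in any library and 0 in all 6 AAV-GFP libraries. Gm17709, a processed pseudogene on the minus strand inside an intron, was at 79.3 ± 18.9, 68.4 ± 18.1 and 79.8 ± 17.0 normalised reads in intact, AAV-GFP and AAV-SIRT3 (SD, n = 6 each) and passed in no comparison. Mir7237 had group means from 0.492 to 0.676. Gm20388 spans the locus with no exon of its own in that of Banp. It was not analysed here, since the deposited values hold no gene of that name. The kit kept strand, but the strand setting of the counting is not given in the sources used here, so reads of Gm27011 and of the overlapping first exons of Banp cannot be told apart.

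No tested neighbour of Banp passed the threshold in the comparison of the 2 viruses, where 0.113% of all tested genes passed by limma. Of 21 tested neighbours, which are Gm17709 and the 10 nearest tested genes on each side, 0 passed between AAV-SIRT3 and AAV-GFP by limma, edgeR or DESeq2, and 3 had an unadjusted p under 0.05 in limma (14.3%, against 15.2% of all tested genes). Their median log2 difference was 0.06, with a range from -0.28 to 0.42, beside -0.00 for all genes and 0.60 for Banp. Without AAV-GFP replicate 2, 1 of the 21 passed, as did 861 of all 19443 tested genes. The nearest on the side before Banp, BC048644 at 30.1 kb, is a low non-coding transcript with a log2 difference of 0.19 (SE 0.39). Slc7a5, which encodes a transporter of large neutral amino acids 42.1 kb away, was at 2529 ± 167, 2452 ± 197 and 2628 ± 161 normalised reads (SD, n = 6 each) and had a log2 difference of 0.10 (SE 0.05, adjusted p = 0.381 by limma). On the other side lies a gap of 240 kb before Zfp469, which had a log2 difference of -0.06 (SE 0.14, adjusted p = 0.887 by limma).

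Some neighbours passed against intact. Between AAV-SIRT3 and intact, 3 of 21 were higher and 0 lower (14.3%, against 21.7% of all tested genes). Jph3, which encodes a protein that joins the plasma membrane to the endoplasmic reticulum in neurons, had a log2 difference of 0.17 (SE 0.05, adjusted p = 0.032 by limma). Klhdc4, a kelch domain gene, had 0.18 (SE 0.06, adjusted p = 0.04997), and the non-coding Gm42047 had 0.66 (SE 0.20, adjusted p = 0.026). The 3 lie on the same side of Banp, 108.6 to 155 kb away, while 0 of the 10 on the other side passed by limma or edgeR and 1 by DESeq2 (2 had an unadjusted p under 0.05 in limma). Between AAV-GFP and intact, Cyba, which encodes a subunit of the phagocyte NADPH oxidase, was higher by 0.59 (SE 0.15, adjusted p = 0.049), and it passed alone among the 21 (4.76%, against 1.84% of all tested genes). The calls are fragile: without intact replicate 4, for instance, 0 of the 3 remained between AAV-SIRT3 and intact, and Cyba and Klhdc4 were not called in 14 of the 18 fits with 1 library removed.

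**Figure D2:**
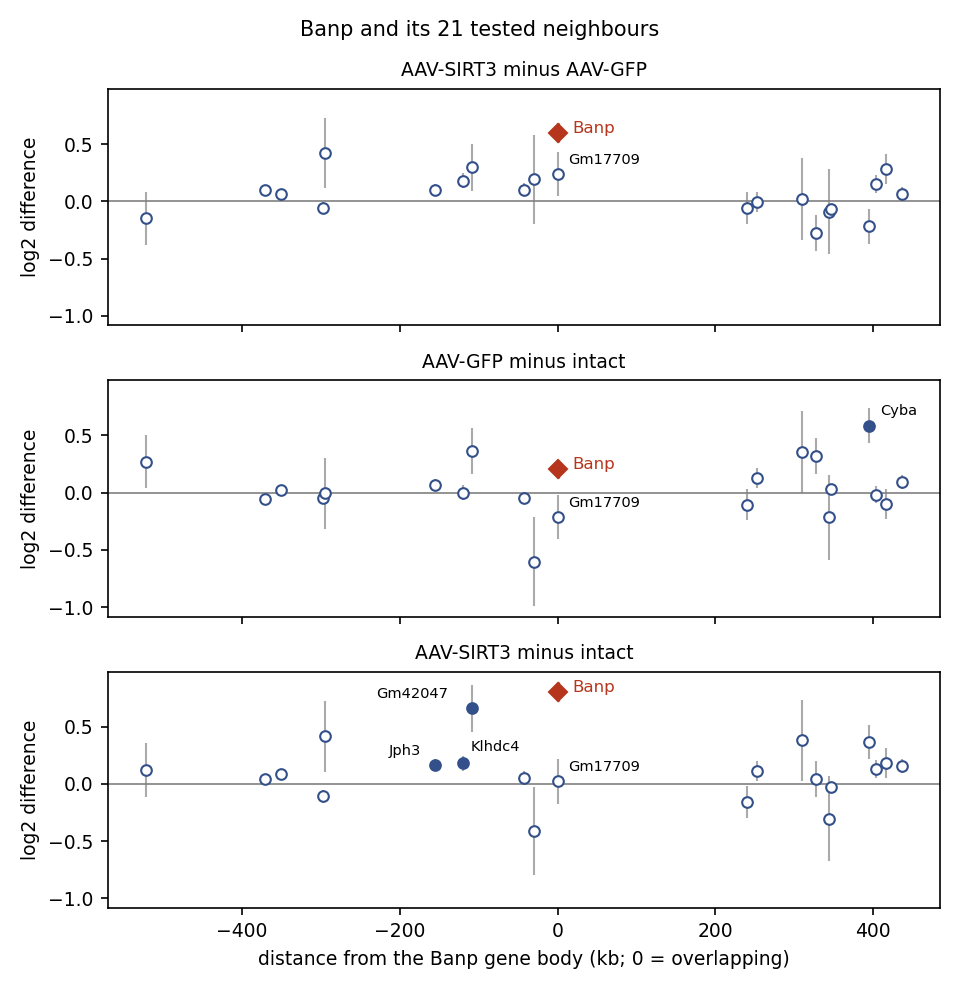
Log2 difference (vertical axes) of Banp (red diamond) and its 21 tested neighbours (circles) against distance from the Banp gene body in kb, for the 3 comparisons. Bars are standard errors, filled circles passed the threshold, and Banp, selected on these values, is shown as a description. Banp stands at 0.60 between AAV-SIRT3 and AAV-GFP, above all of its neighbours, which reach 0.42.

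The genes that carry the CGCG element of BANP in their promoters were examined as a group. The letters searched were the core CTCGCGAG, which reads the same on both strands, in RefSeq promoter windows of 300 bp (250 bases before to 50 after a gene's start; build GRCm38.p6). It occurs in 302 of 32851 windows (0.919%) and in the windows of 249 of the 13381 tested genes with one (1.86%); in 130 of these genes a T precedes and an A follows it. The median position of the core was 53 bases before the start (-53), with quartiles at -133 and -21. A match is a description of the letters and not of binding. The windows around the core are shown for 4 genes that passed a comparison, to let the shared core and the differing flanks be seen; capitals mark the core, and each is written 5′ to 3′ on the strand of its gene.
Fbn1 (chr2:125506462-125506521, minus strand): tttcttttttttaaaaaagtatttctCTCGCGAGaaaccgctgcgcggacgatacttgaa
Smc1b (chr15:85131997-85132056, minus strand): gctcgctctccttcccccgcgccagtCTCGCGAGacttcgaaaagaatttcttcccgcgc
Chrna7 (chr7:63212582-63212641, minus strand): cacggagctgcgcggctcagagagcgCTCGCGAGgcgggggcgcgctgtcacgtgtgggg
Adnp (chr2:168207318-168207362, minus strand): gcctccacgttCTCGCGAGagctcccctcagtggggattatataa
Fbn1, Smc1b and Adnp have the T before and the A after the core, and Chrna7 does not.

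The median difference of genes with the core lay within 0.01 of 0 in each comparison. Between AAV-SIRT3 and AAV-GFP, where Banp itself differed by 0.60, their median log2 difference was 0.00 (0.0036), beside -0.00 (-0.0002) for all tested genes with a promoter window, and 132 of 249 were above 0. Between AAV-GFP and intact the medians were -0.00 (-0.0037) and 0.01 (0.0066), and between AAV-SIRT3 and intact -0.00 (-0.0042) and 0.01 (0.0067). With 1 library left out, the last of these ran from -0.0074 to 0.0067, and it was above 0 without intact replicate 1 or 6 or AAV-SIRT3 replicate 1, 3 or 5. By count, 0 were higher and 1 was lower between AAV-SIRT3 and AAV-GFP by limma (40 had an unadjusted p under 0.05, and 1 passed by edgeR and 2 by DESeq2; 0.402% passed and 16.1% had an unadjusted p under 0.05, against 0.120% and 15.7% of all genes with a window), 1 was higher and 2 lower between AAV-GFP and intact (1.20%, against 1.91% of all genes with a window), and 36 were higher and 36 lower between AAV-SIRT3 and intact (14.5% each, against 12.9% higher and 9.77% lower of all genes with a window). Their median r with Banp was 0.01 over the 18 libraries and -0.00 with group means subtracted, beside 0.02 and 0.01 for all genes with a window. Without AAV-GFP replicate 2, 22 of the 249 passed between AAV-SIRT3 and AAV-GFP, a larger share than the 861 of all 19443 tested genes. The 861 were counted over all tested genes and not only those with a window.

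**Figure D3:**
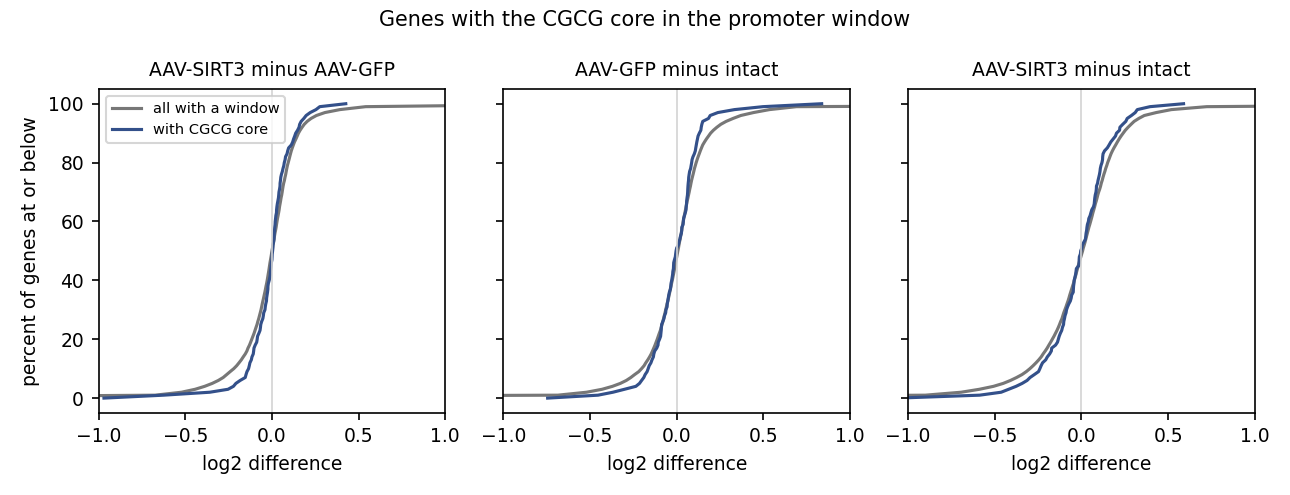
Cumulative percent of genes (vertical axis) by log2 difference (horizontal axis, shown from -1 to 1) for the 249 tested genes with the core in their promoter window (blue) and all 13381 tested genes with a window (grey), in the 3 comparisons. The curves cross the middle at log2 differences within 0.01 of 0 in all 3.

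The gene with the core that passed between AAV-SIRT3 and AAV-GFP was Fbn1, which encodes the matrix protein fibrillin. It ran from 843 to 1194 normalised reads in intact, with a median of 1039.9, from 822 to 1022 in AAV-GFP, with a median of 894, and from 642 to 764 in AAV-SIRT3, with a median of 655. The 6 AAV-SIRT3 libraries thus lie below the 12 others. The log2 difference was -0.42 between AAV-SIRT3 and AAV-GFP (SE 0.07, adjusted p = 0.017 by limma), and -0.59 between AAV-SIRT3 and intact (SE 0.07, adjusted p = 0.00018). The first of these calls was lost without AAV-GFP replicate 3, AAV-GFP replicate 5 or AAV-SIRT3 replicate 5. Fbn1 fell while Banp was high, with r of -0.79 over the 18 libraries, but within groups r was 0.24. Endothelial markers were also low in AAV-SIRT3: their summed level was 4402 ± 888 normalised reads against 5541 ± 557 in AAV-GFP and 5324 ± 616 in intact (SD, n = 6 each), with 0 of 4 passing between AAV-SIRT3 and AAV-GFP (4 of 4 with an unadjusted p under 0.05, against 15.2% of all tested genes, and 0 by edgeR and DESeq2) and 3 of 4 lower against intact (75%, against 10.3%). The part of endothelial or other vessel RNA in the fall of Fbn1 was not tested.

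The 5 genes with the core and the largest called differences between AAV-SIRT3 and intact all fell. They were Smc1b, a meiotic cohesin subunit, with -1.06 (SE 0.36, adjusted p = 0.036 by limma), Adnp, a neuroprotective chromatin factor, with -0.88 (SE 0.30, adjusted p = 0.041), Chrna7, a nicotinic acetylcholine receptor subunit, with -0.59 (SE 0.13, adjusted p = 0.0037), Fbn1, and Nktr, a cyclophilin-related protein, with -0.46 (SE 0.09, adjusted p = 0.0013). Smc1b and Adnp rest on few reads, with intact means of 18.7 ± 6.26 and 42.1 ± 13.0 normalised reads (SD, n = 6 each), and were not called in 7 and 8 of the 18 fits with 1 library removed. Chrna7 was at 668 ± 92.3 for intact, 494 ± 74.0 for AAV-GFP and 450 ± 99.2 for AAV-SIRT3, so the level in AAV-GFP was already close to that in AAV-SIRT3.

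Partners and reported targets of BANP showed few calls, and between AAV-SIRT3 and AAV-GFP their shares were near those of all tested genes. Of the 13 genes on that list, 0 passed there by limma, edgeR or DESeq2, against 0.113% of all tested genes by limma. An unadjusted p under 0.05 was found for 2 (15.4%, against 15.2%), and the median log2 difference was -0.02. Btg3, the antiproliferative gene after which BANP is named, was at 482 ± 71.7 normalised reads for intact, 438 ± 26.2 for AAV-GFP and 411 ± 64.4 for AAV-SIRT3 (SD, n = 6 each), with a log2 difference of -0.10 (SE 0.10, adjusted p = 0.663 by limma) between the virus groups. Trp53, which encodes p53, was at 1147 ± 15.7, 1142 ± 93.8 and 1149.9 ± 58.0. The corepressor partners Hdac1 and Sin3a differed by -0.06 each (adjusted p = 0.456 and 0.508).

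Against intact, 2 of these 13 genes passed in AAV-SIRT3 (15.4%, against 21.7% of all tested genes), 1 each way. Cdkn1a, the p53 target that encodes the cell cycle inhibitor p21, rose by 0.48 (SE 0.14, adjusted p = 0.020 by limma). It ran from 354 to 538 in intact and from 479 to 871 in AAV-SIRT3, so the groups overlap, and without AAV-SIRT3 replicate 6, the highest library, it did not pass (adjusted p = 0.051). Ccnd1, which encodes cyclin D1, a gene reported to be repressed by BANP, fell by 0.25 (SE 0.06, adjusted p = 0.0063). It ran from 1291 to 1466 in intact and from 1001 to 1319.9 in AAV-SIRT3, so that these groups overlap, with 1160 to 1447 in AAV-GFP, a group whose log2 difference from intact of -0.11 did not pass (adjusted p = 0.320). Between AAV-GFP and intact, 0 of 13 passed by limma, edgeR or DESeq2, against 1.84% of all tested genes by limma. Of the 13, 0 had an unadjusted p under 0.05, against 19.1% of all tested genes.

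The other BEN domain genes gave 1 call. Per kb of merged exon, Banp was at 113 normalised reads in intact and 199 in AAV-SIRT3, in the lower part of the family's range. Bend6, a neuronal repressor of Notch targets, was at 4323 per kb in intact, Nacc2 at 1896 and Nacc1, a transcriptional regulator, at 1286, while Bend5 stood at 242, Bend7 at 109.8 and Bend3 at 73.4. Bend2 was near 0, and 7 of the 8 genes were tested. None of the 7 passed between AAV-SIRT3 and AAV-GFP by limma, edgeR or DESeq2, against 0.113% of all tested genes by limma. An unadjusted p under 0.05 was found for 1 (14.3%, against 15.2%), and the log2 differences of the 7 ran from -0.06 to 0.16. Bend3, a transcriptional repressor, was lower in AAV-SIRT3 than in intact by a log2 difference of -0.35 (SE 0.09, adjusted p = 0.0091 by limma), 1 of 7 against a background of 21.7%.

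Proteins that bind matrix attachment regions, the class in which BANP was first placed, gave 1 call in each comparison with intact. Of the 12 genes, 0 passed between AAV-SIRT3 and AAV-GFP by limma, edgeR or DESeq2, against 0.113% of all tested genes by limma. An unadjusted p under 0.05 was found for 0, against 15.2% of all tested genes, and log2 differences ran from -0.07 to 0.09. Satb1, a loop organiser, was lower in AAV-GFP than in intact by a log2 difference of -0.20 (SE 0.05, adjusted p = 0.049 by limma), and Matr3, a nuclear matrix protein, was higher in AAV-SIRT3 than in intact by 0.13 (SE 0.04, adjusted p = 0.031). These were 1 of 12 in each comparison (8.33%, against 1.84% of all tested genes between AAV-GFP and intact and 21.7% between AAV-SIRT3 and intact), and the calls were lost in 14 and 5 of the 18 fits with 1 library removed. Ctcf, which anchors chromatin loops, was at 3481 ± 97.1, 3582 ± 169.8 and 3662 ± 99.7 normalised reads in intact, AAV-GFP and AAV-SIRT3 (SD, n = 6 each) and passed in no comparison.

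Among the partners, BEN domain genes, matrix attachment proteins and CpG methylation factors, the CpG factors had the most calls, and most of these were lower. Between AAV-SIRT3 and intact, 9 of 20 were lower (45.0%, against 10.3% of all tested genes) and 1 was higher (against 11.3%), and the median log2 difference was -0.14 beside -0.00 for all genes. The 3 TET enzymes, which oxidise methylcytosine, fell together. Tet1 ran from 1295 to 1398 in intact, with a median of 1365, and from 892 to 1025 in AAV-SIRT3, with a median of 963, with no overlap. Its log2 difference was -0.50 (SE 0.07, adjusted p = 0.00045 by limma), and those of Tet2 and Tet3 were -0.36 (SE 0.08, adjusted p = 0.0035) and -0.31 (SE 0.04, adjusted p = 0.00025). The CXXC proteins Kmt2a, Kmt2b, Kdm2a and Kdm2b, which bind unmethylated CpG islands, had -0.38, -0.27, -0.15 and -0.18 (adjusted p = 0.00094, 0.00087, 0.0085 and 0.029). The methyltransferase Dnmt3a had -0.14 and the repair enzyme Mbd4 -0.29 (adjusted p = 0.017 and 0.018). Mbd3, a subunit of the NuRD complex, rose by 0.23 (SE 0.05, adjusted p = 0.0057). Of the 10 calls, that of Kdm2b was lost without intact replicate 1, intact replicate 3, AAV-SIRT3 replicate 3 or AAV-SIRT3 replicate 5.

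3 of these factors were also lower in AAV-GFP than in intact. Tet1 with -0.32 (SE 0.07, adjusted p = 0.028 by limma), Tet3 with -0.21 (SE 0.04, adjusted p = 0.017) and Kmt2b with -0.18 (SE 0.05, adjusted p = 0.047) passed between AAV-GFP and intact, 3 of 20 against a background of 1.84%; with 1 library removed the call was lost in 5 of 18 fits for Tet1, in 14 for Kmt2b and in 0 for Tet3. Between AAV-SIRT3 and AAV-GFP, 0 of 20 passed by limma, edgeR or DESeq2, against 0.113% of all tested genes by limma. An unadjusted p under 0.05 was found for 6 (30.0%, against 15.2% of all tested genes), 17 of 20 were below 0, and the median was -0.07. Without AAV-GFP replicate 2, 3 of 20 passed there, a larger share than the 861 of all 19443 tested genes. The median merged exon length of the 9 lower genes was 15.5 kb, against 5.12 kb for the other 11. It was 3.78 kb for the 18855 tested genes with an annotated length. Mbd4, 1 of the 9, was at 5.28 kb. Across the 18855 genes, which are not independent replicates, log2 differences fell with exon length. Spearman rho was -0.22 between AAV-SIRT3 and intact and -0.16 in each of the other comparisons. The part of exon length in the fall of these factors was not tested.

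**Figure D4:**
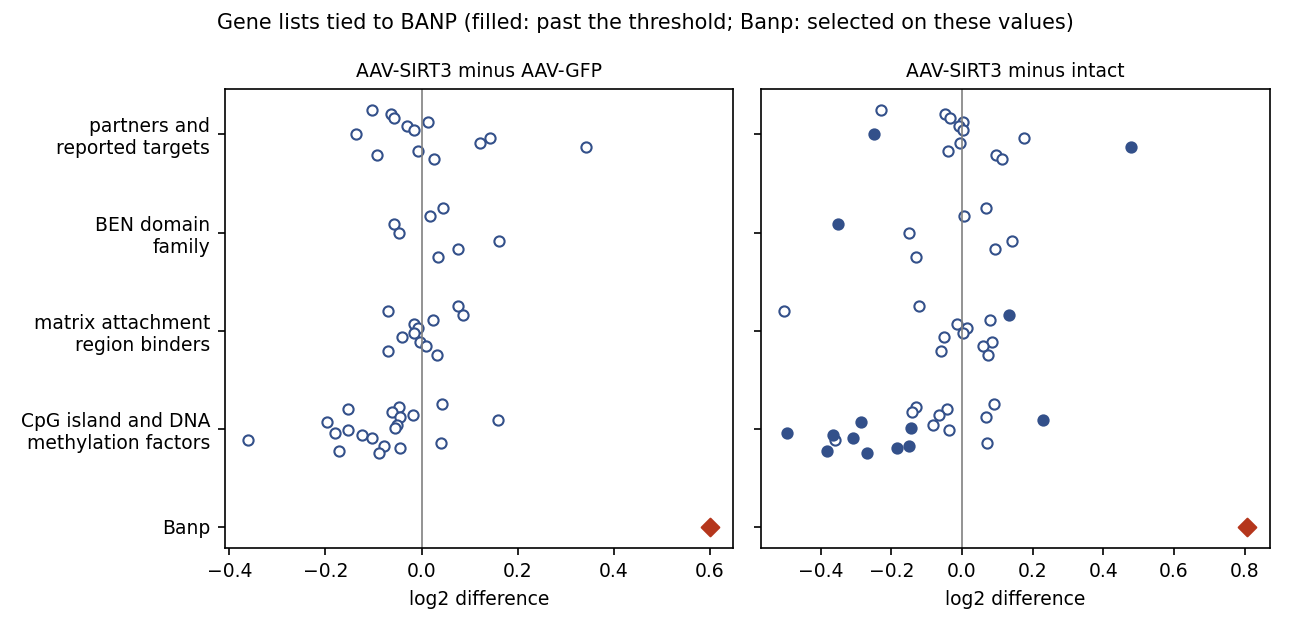
Log2 differences (horizontal axes) of the tested members of 4 lists tied to BANP, between AAV-SIRT3 and AAV-GFP (left) and between AAV-SIRT3 and intact (right). Each circle is a gene, filled where it passed the threshold, and the red diamond is Banp, selected on these values and shown as a description; 0 circles are filled on the left and 14 on the right, 9 of them CpG factors below 0.

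Genes whose levels followed Banp over the 18 libraries were named by Pearson r on the log2(value + 1) scale, among the 15244 others with a mean of at least 50 normalised reads. They were picked as the extremes of all those genes, the libraries fall into 3 groups, and no p is given. The highest were Fam20a, a secretory pathway pseudokinase (r 0.88, Spearman rho 0.93), Elof1, a transcription elongation factor (0.87, 0.87), Eif3b, a translation initiation subunit (0.87, 0.85), Praf2, a membrane protein of the endoplasmic reticulum (0.86, 0.88), Nop10 (0.86, 0.79) and mt-Rnr2, the large mitochondrial ribosomal RNA (0.86, 0.90). The lowest were the non-coding Gm44423 (-0.91, -0.90), Stx17, a syntaxin of autophagosomes (-0.89, -0.83), Adamts1, a secreted metalloprotease (-0.89, -0.79), and Gabpb2, a subunit of the GABP transcription factor (-0.88, -0.83). In all, 73 genes had r above 0.8 and 41 below -0.8. Without AAV-SIRT3 replicates 6 and 2, the libraries farthest from the median of Banp, r of these 10 genes ran from 0.81 to 0.84 and from -0.93 to -0.85.

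Part of this likeness is the step between groups. With group means subtracted, r was 0.72 for Fam20a, 0.64 for Praf2, 0.56 for mt-Rnr2 and -0.70 for Stx17, but 0.17 for Nop10, -0.29 for Adamts1 and -0.21 for Gabpb2. Fam20a ran from 757 to 820 normalised reads in intact, with a median of 802, from 793 to 1011 in AAV-GFP, with a median of 916, and from 932 to 1130 in AAV-SIRT3, with a median of 1013. Like Banp it was lowest in intact replicate 2 and highest in AAV-SIRT3 replicate 2, but its AAV-GFP and AAV-SIRT3 libraries overlap. Stx17 went the other way, from 2121 to 2281 in intact, from 1914 to 2146 in AAV-GFP and from 1818 to 2068 in AAV-SIRT3, and its lowest AAV-GFP library was replicate 5, the highest of that group for Banp.

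Within groups the genes most like Banp were others. The highest r with group means subtracted were those of Acin1, a splicing and apoptosis factor (0.85), Josd1, a deubiquitinase (0.79), Gps2, a subunit of the NCoR corepressor complex (0.78), Per2, a repressor of the circadian clock (0.77), Ptpn12, a tyrosine phosphatase (0.77), and Dcakd (0.76). The lowest were Gm37309 (-0.83), the zinc finger gene Zfp41 (-0.83), Gm55594 (-0.79) and Zfp941 (-0.79). Acin1 differed little between groups, with means of 6012 ± 163, 6166 ± 291 and 6003 ± 291 normalised reads in intact, AAV-GFP and AAV-SIRT3 (SD, n = 6 each), and its r with Banp over all 18 libraries was 0.21. Inside AAV-GFP and AAV-SIRT3 it ordered the libraries much as Banp did, with r of 0.998 and 0.96 over 6 libraries each, while in intact r was 0.24. Josd1 and Per2 followed Banp both ways, with r of 0.83 and 0.78 over all libraries. None of the 10 genes named over all libraries was among the 10 named within groups.

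**Figure D5:**
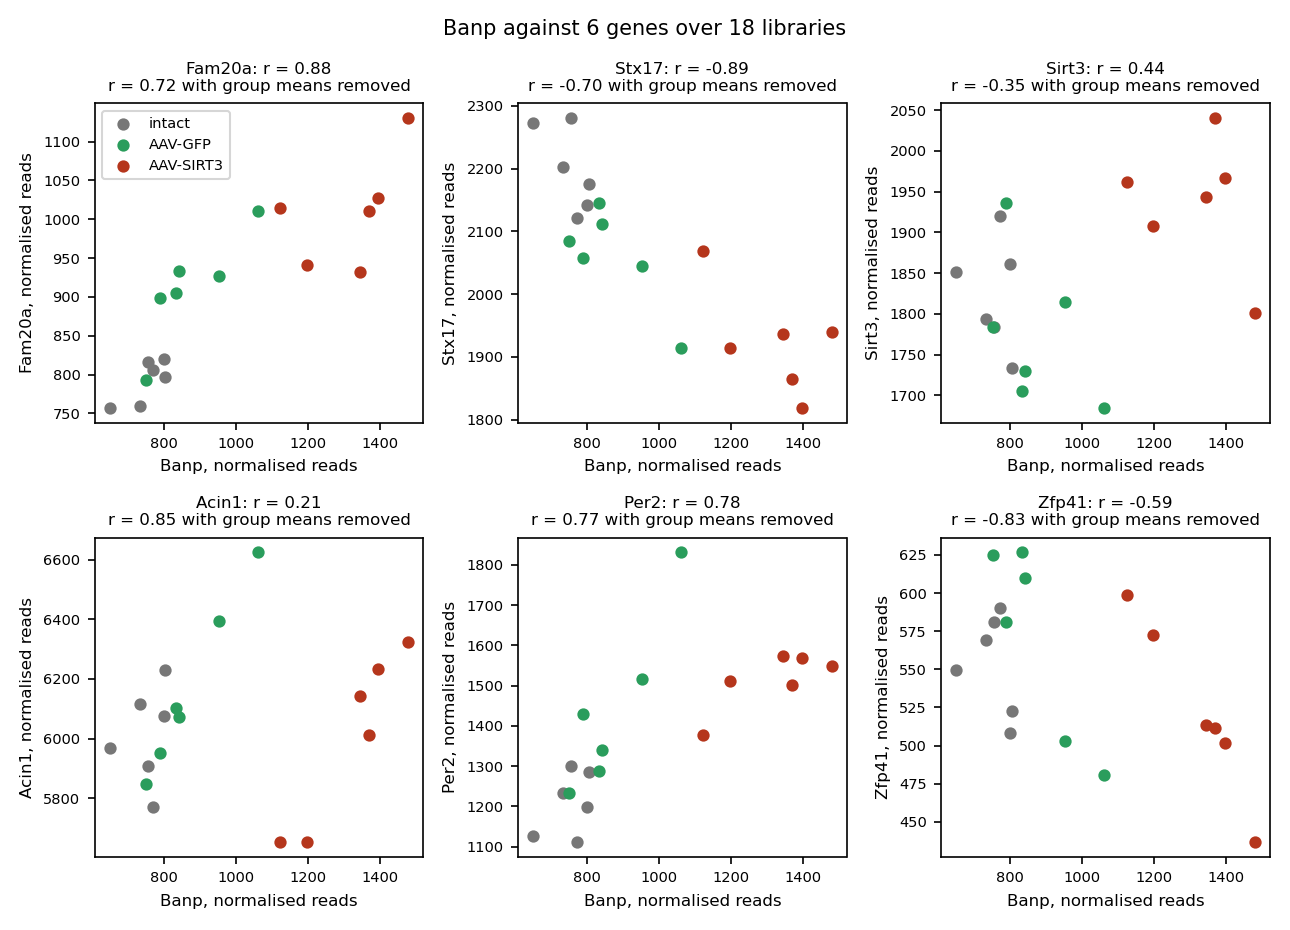
Normalised reads of 6 genes (vertical axes, not starting at 0) against those of Banp (horizontal axes) over 18 libraries, coloured by group, with Pearson r on the log2 scale over all libraries and with group means subtracted. Fam20a, Per2 and, in the opposite direction, Stx17 follow Banp both over all libraries and within groups (r of 0.72, 0.77 and -0.70 with group means subtracted). Acin1 and Zfp41 do so mainly within groups, and Sirt3 in neither way.

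Measures of library makeup moved with Banp to different degrees. Depth had r of -0.03 with Banp over the 18 libraries and -0.22 with group means subtracted. The share of reads from 37 mitochondrially encoded genes was 7.68% ± 0.272 for intact, 8.03% ± 0.401 for AAV-GFP and 8.25% ± 0.274 for AAV-SIRT3 (SD, n = 6 each), with r of 0.67 and 0.46. Summed endothelial markers had r of -0.50 and 0.09, summed anterior pituitary markers -0.52 and -0.32, summed oligodendrocyte markers 0.43 and 0.15, and summed thalamic markers 0.33 and -0.18. Summed markers of dopaminergic neurons had r of -0.04 and -0.18, and those of activated microglia, which were high in AAV-GFP at 1487 ± 499 normalised reads against 567 ± 46.9 in intact and 678 ± 153 in AAV-SIRT3, had -0.07 and 0.10. Summed oligodendrocyte precursor markers had r of 0.16 and -0.41, the latter the largest in size among the 12 marker sums with group means subtracted. The ranges of all 12 marker sums in AAV-SIRT3 overlapped those in AAV-GFP. Their part in the level of Banp was not tested.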

How the data were processed

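The deposited table holds reads per gene normalised to library size by the authors, a signal with no log taken. HISAT2 2.1.0, DESeq2 1.34.0 and the mouse build mm10 were used per the submitters' processing notes, and HTSeq counting per the deposited table's name; the strand setting and annotation are not given in the sources used here. Whole reads were recovered from the steps of the values (100% of values came out whole), which gave 47182529 to 64728587 reads per library. The reads have no molecular identifiers, so they are not counts of molecules. Genes that reached 10 normalised reads in 6 or more of the 18 libraries were tested with limma 3.58.1 in R 4.3.3 on log2(value + 1), in 1 fit over the 3 groups, with Benjamini-Hochberg adjustment over 19443 genes and a threshold of 0.05. On the recovered reads, edgeR 4.0.16 called 24, 362 and 4086 genes and DESeq2 1.42.0 called 304, 1000 and 4616 (AAV-SIRT3 against AAV-GFP, AAV-GFP against intact, AAV-SIRT3 against intact).

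Named genes were Banp, Sirt3, overlapping and neighbouring genes, members of the lists, genes higher in AAV-SIRT3 than in AAV-GFP, genes with the promoter core called between those groups or among the 5 largest against intact, and the 6 highest and 4 lowest by r. The members and lists were chosen with earlier results of these data known. Gene positions and exon lengths came from GENCODE M21 (GRCm38), which holds 49192 of the 55270 symbols, and promoter windows from RefSeq. The p-values of limma set the differences between group means against the spread between these samples. Alternatives were other pseudocounts and filters, TMM scaling, 2 groups only, a replicate block, edgeR, DESeq2 and each library left out. The fitting was tested on simulated data. Python 3.11.15 with numpy 2.4.6, pandas 2.3.3, scipy 1.17.1 and matplotlib 3.10.9 was used.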

Additional observations from a re-analysis of the deposited data

Results flagged for a closer look

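Among 105 groups of 6 libraries examined, 8 held a library whose gap to the nearest other was a larger share of the group's range than Dixon's critical value; chance flags about 1 in 20 groups, or 5.25 here. Per2, a gene that followed Banp, was lowest in AAV-SIRT3 replicate 3, at 1378 normalised reads with the next at 1501, and that replicate was also the lowest of its group for Banp. Gm55594 was highest in AAV-GFP replicate 1, at 113 with the next at 51.0. Summed dopaminergic markers were lowest in AAV-SIRT3 replicate 6, at 25190.0 with the next at 28697. Summed oligodendrocyte markers were highest in intact replicate 1, at 973415 with the next at 842822, and in AAV-GFP replicate 3, at 943205 with the next at 866066. Summed thalamic markers were lowest in AAV-GFP replicate 3, at 40473 with the next at 46314.5. Summed choroid plexus markers were highest in intact replicate 2, at 47283 with the next at 5237, and in AAV-GFP replicate 5, at 41744 with the next at 1435. AAV-GFP replicate 5 was also the highest of its group for Banp, while intact replicate 2 was the lowest of all libraries for Banp. The choroid plexus sum had r of -0.27 with Banp over the 18 libraries and 0.16 with group means subtracted. No group of Banp itself held such a library.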

How the results depend on the processing

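The 3 log2 differences of Banp kept their sign in all 27 alternatives run for each; with 1 library left out they ran from 0.56 to 0.66 between AAV-SIRT3 and AAV-GFP, from 0.15 to 0.25 between AAV-GFP and intact, and from 0.76 to 0.85 between AAV-SIRT3 and intact. The number of genes called between AAV-SIRT3 and AAV-GFP was 22, and it was 8 with 2 groups only, 304 with DESeq2, and from 5 (without AAV-SIRT3 replicate 5) to 861 (without AAV-GFP replicate 2) with 1 library left out. Between AAV-GFP and intact it was 358, and it was 164 with all genes above 0, 199 with 2 groups only, 1000 with DESeq2, and between 129 (intact replicate 3 removed) and 686 (AAV-GFP replicate 1 removed). Between AAV-SIRT3 and intact it was 4214 and stayed within 1.5 times that in all 27 alternatives. The median of the genes with the promoter core between AAV-SIRT3 and intact, -0.0042, was -0.0139 with edgeR and 0.0063 for genes with T before and A after the core, and ran from -0.0074 to 0.0067 with 1 library left out; it was above 0 without intact replicate 1 or 6 or AAV-SIRT3 replicate 1, 3 or 5, and also with TMM scaling (0.0039), a pseudocount of 10 (0.0018) or a mean of at least 50 (0.0021). Of the 10 genes most like Banp, 4 were shared by Spearman rho, 0 with group means subtracted, and from 1 (without AAV-GFP replicate 2) to 10 with 1 library left out. The cause of these changes was not tested.

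No pairing by replicate number was seen: same-numbered libraries of different groups had correlations of deviations from -0.0953 to 0.175. Low correlations cannot exclude a pairing. With the replicate number as a block, 13, 372 and 3923 genes were called in the 3 comparisons in the order above, the differences of Banp were 0.60, 0.21 and 0.81, and the medians of genes with the core were 0.0036, -0.0037 and -0.0042.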

Other observations

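Tef and Per2, both tied to the circadian clock, were seen beside Banp, and a list of 16 clock genes was then chosen after those values were seen; it is described only. Between AAV-SIRT3 and intact, 8 of the 16 were higher by limma (50%, against 11.3% of all tested genes) and 0 lower: Per2, Dbp, Tef, Hlf, Nr1d2, Ciart, Cry1 and Bhlhe41, with log2 differences from 0.15 for Tef to 0.40 for Ciart. Per2 was at 1209 ± 78.8 normalised reads for intact, 1439.9 ± 217 for AAV-GFP and 1514 ± 72.8 for AAV-SIRT3 (SD, n = 6 each). The core activators Arntl and Clock had 0.04 and -0.16 and did not pass (adjusted p = 0.745 and 0.053). Between AAV-SIRT3 and AAV-GFP, 0 of 16 passed by limma or edgeR and 2 by DESeq2, and 4 had an unadjusted p under 0.05 in limma (25%, against 15.2% of all tested genes, of which DESeq2 called 304); between AAV-GFP and intact, 0 passed by limma or edgeR and 5 by DESeq2, and 7 had an unadjusted p under 0.05 (43.8%, against 19.1% of all tested genes, of which DESeq2 called 1000). The median r of the 16 with Banp was 0.49 over the 18 libraries and 0.01 with group means subtracted. The time of day of collection is not given in the sources used here.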
